A study of Homo sapiens with 8 samples.

Results

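The genes examined were 10 transcription factors that act in trophoblast, the epithelium of the placenta, namely GATA2, GATA3, TFAP2A, TFAP2C, TP63, ELF5, GCM1, DLX3, MSX2 and PPARG. They were looked up by symbol among the 63816 gene entries of the deposited expression table, and each symbol stood on a single entry. The genes were chosen by name after earlier results of these data had shown placental genes at high TPM in both groups, so their levels in these 8 samples are given as a description without a test. All 8 samples are labelled as Caco-2, a long-established human line derived from a colorectal adenocarcinoma. In 4 samples the cells carried empty pcDNA3.1, and in the other 4 they carried the same vector with full-length SIGLEC12, and both populations had been selected as stable transfectants with G418. The sources differ on whether replicates were separate cultures or technical libraries, so every error and p below measures the spread between libraries, which may be technical. As each vector was introduced and selected in a separate cell population, an effect of Siglec-XII cannot be told apart from a difference between those populations.

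Trophoblast arises from the outer layer of the early embryo, and its proliferating cells, the cytotrophoblast, fuse into the hormone-producing syncytiotrophoblast or migrate as extravillous trophoblast. GATA2, GATA3, TFAP2A and TFAP2C are core factors that install and hold trophoblast identity. TP63 and ELF5 are typical of the proliferating cytotrophoblast, whereas GCM1 drives fusion, and DLX3, MSX2 and PPARG act in placental differentiation. Except for GCM1, which is largely a placental factor, these genes are also used elsewhere, for example in skin, urothelium, breast, blood or fat.

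Levels are TPM, transcripts per 1000000 transcripts, a unit that is already divided by transcript length and so allows genes to be compared within a sample. The number of entries at 1 TPM or more was 15513 to 15934 per sample, and the correlation across the 15590 entries tested ran from 0.979 to 0.984 within groups and from 0.972 to 0.980 between them. SIGLEC12 was at most 0.122 TPM with the empty vector and at least 1582 TPM with the SIGLEC12 vector, which matched the labels (p = 0.0286 by a two-sided exact permutation test, the lowest that groups of 4 can reach).

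Of the 10 factors, 8 were above 1 TPM in every sample, and GCM1 and ELF5 were below 1 TPM in every sample. The sequence upstream of the start site also differed between these genes. RefSeq start-site windows of 300 bases (GRCh38.p14) were held for 8 of the 10 genes, TFAP2C and DLX3 being without one, and each was placed on GRCh37, the build of the deposited table, by an exact match. The 250 bases before the start are shown for both GATA genes, as the most abundant factors with a window, for TP63, as an expressed gene with few CpG, and for the genes below 1 TPM. Capitals mark every CpG, the dinucleotide that is methylated in mammalian DNA and that is dense in CpG island promoters. The windows are chr3:128212045-128212294 on the minus strand for GATA2, chr10:8096401-8096650 on the plus strand for GATA3, chr3:189348928-189349177 on the plus strand for TP63, chr6:53013640-53013889 on the minus strand for GCM1 and chr11:34533272-34533521 on the minus strand for ELF5.
GATA2: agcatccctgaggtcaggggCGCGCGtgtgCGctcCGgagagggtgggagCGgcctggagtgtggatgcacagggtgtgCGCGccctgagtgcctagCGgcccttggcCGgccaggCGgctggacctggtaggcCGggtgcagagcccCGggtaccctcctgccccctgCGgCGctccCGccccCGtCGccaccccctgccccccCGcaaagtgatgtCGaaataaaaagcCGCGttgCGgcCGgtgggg
GATA3: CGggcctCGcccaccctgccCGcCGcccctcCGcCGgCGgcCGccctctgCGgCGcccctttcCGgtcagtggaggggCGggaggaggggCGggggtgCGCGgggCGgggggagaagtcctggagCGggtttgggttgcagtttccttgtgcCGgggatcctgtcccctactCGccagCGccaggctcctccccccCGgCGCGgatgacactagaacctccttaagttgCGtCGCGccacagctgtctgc
TP63: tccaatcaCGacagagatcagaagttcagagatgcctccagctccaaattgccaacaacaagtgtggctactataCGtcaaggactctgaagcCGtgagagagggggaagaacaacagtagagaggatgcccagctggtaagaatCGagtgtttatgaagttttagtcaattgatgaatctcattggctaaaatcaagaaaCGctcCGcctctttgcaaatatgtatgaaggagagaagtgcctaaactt
GCM1: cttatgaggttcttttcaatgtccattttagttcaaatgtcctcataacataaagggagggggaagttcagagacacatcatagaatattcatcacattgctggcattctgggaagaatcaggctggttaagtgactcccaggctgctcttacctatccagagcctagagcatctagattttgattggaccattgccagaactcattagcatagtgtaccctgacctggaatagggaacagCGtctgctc
ELF5: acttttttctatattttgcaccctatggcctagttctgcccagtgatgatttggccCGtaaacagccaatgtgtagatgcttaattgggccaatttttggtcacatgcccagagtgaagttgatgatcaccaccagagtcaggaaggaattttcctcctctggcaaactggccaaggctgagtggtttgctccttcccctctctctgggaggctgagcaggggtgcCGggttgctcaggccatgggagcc

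The shown stretch held 24 CpG for GATA2, 26 for GATA3, 6 for TP63, 1 for GCM1 and 2 for ELF5. In the full windows of 300 bases the counts were 29 for GATA2, 29 for GATA3, 24 for MSX2, 18 for TFAP2A, 9 for PPARG, 7 for TP63, 2 for ELF5 and 1 for GCM1, against a median of 14 over all 35116 windows. The genes below 1 TPM thus had the fewest CpG of the 8, but PPARG and TP63 were expressed with windows that were also below the median. Each entry sums the gene, and whether the transcripts counted began at the start in the window was not tested. This holds for TP63 too, which has a single window. Windows with 10 or fewer CpG made up 45.3% of all windows. For genes with several windows the one nearest the start of the main annotated transcript was used. The start in the window lay 2683 bases downstream of that transcript's start for TFAP2A, and 2070 bases downstream for ELF5, which has a single window. The GATA motifs AGATAA and TGATAA, searched on both strands, were in 0 of these 8 windows, where 10.3% and 7.53% of all windows hold them. The AP-2 motif GCCNNNGGC, which reads the same on both strands, was in those of GATA2 and GATA3, against 23.2% of all windows. These are matches of letters in short windows and say nothing of binding.

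GATA3 was the most abundant of the 10. Its gene (ENSG00000107485) lies on chromosome 10 from 8087341 to 8117161. It encodes a zinc finger factor that in trophoblast acts beside GATA2. GATA3 stood at 479, 401, 397 and 331 TPM in empty vector replicates 1 to 4, and at 375, 382, 345 and 333 TPM in the Siglec-XII replicates. Empty vector replicate 1 was the highest and replicate 4 the lowest of all 8, so the Siglec-XII samples lay inside the range of the controls. GATA3 ranked between 297 and 441 among all entries and was above 96.7% to 97.8% of the 12081 protein-coding entries tested, depending on the sample.

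GATA2 (ENSG00000179348, chromosome 3, 128198270 to 128212044, minus strand) is better known from blood stem cells and in trophoblast shares many sites with GATA3. It had 134, 130, 134 and 121 TPM with the empty vector and 146, 147, 152 and 148 TPM with Siglec-XII. All 4 Siglec-XII samples were above all 4 controls. GATA3 RNA exceeded GATA2 RNA 3.10-fold ± 0.358 (SD, n = 4) with the empty vector and 2.42-fold ± 0.191 (SD, n = 4) with Siglec-XII. This ratio ran from 2.74 to 3.59 in the controls and from 2.24 to 2.60 in the Siglec-XII samples, without overlap, and is a description, since it was formed after both genes had been seen.

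TFAP2C and TFAP2A encode AP-2 factors, which bind GC-rich sites and are needed for trophoblast genes such as those of steroid synthesis. TFAP2C (ENSG00000087510, chromosome 20, 55204362 to 55214339) was second among the 10, with 152, 163, 157 and 160 TPM with the empty vector and 171, 173, 160 and 155 TPM with Siglec-XII. The groups overlapped, and TFAP2C had the lowest coefficient of variation of the 10 over the 8 samples, 4.53%. That figure takes in the group difference. The SD within groups on the log2 scale was lower for MSX2 (0.044) and GATA2 (0.053) than for TFAP2C (0.060). TFAP2A (ENSG00000137203, chromosome 6, 10393419 to 10419892, minus strand) had 29.5 to 36.7 TPM with the empty vector and 31.1 to 35.3 TPM with Siglec-XII. TFAP2C RNA was 4.82-fold ± 0.537 that of TFAP2A with the empty vector and 4.98-fold ± 0.175 (SD, n = 4 in each group) with Siglec-XII.

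Of the cytotrophoblast factors, TP63 was expressed and ELF5 was near the floor. TP63 (ENSG00000073282, chromosome 3, 189349178 to 189615065), a factor that keeps epithelial progenitor cells proliferating, had 29.5 to 39.2 TPM with the empty vector and 33.9 to 39.5 TPM with Siglec-XII. The entry sums the gene, so the long isoforms and the N-terminally shortened isoforms, which have opposed activities, cannot be read apart. ELF5 (ENSG00000135374, chromosome 11, 34500338 to 34546740, minus strand), an ETS factor that marks trophoblast stem cells and milk-forming breast cells, had 0.230 to 0.664 TPM with the empty vector and 0.193 to 0.703 TPM with Siglec-XII. It was listed above 0 in all 8 samples, but its coefficient of variation of 52.8% was the largest of the 10.

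GCM1, whose product switches on the fusogenic syncytins, was also below 1 TPM in every sample. It (ENSG00000137270, chromosome 6, 52991759 to 53013639, minus strand) had 0.496, 0.846, 0.506 and 0.678 TPM with the empty vector and 0.804, 0.841, 0.470 and 0.731 TPM with Siglec-XII. The groups covered nearly the same range.

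The homeobox factors MSX2 and DLX3 and the nuclear receptor PPARG were all expressed. MSX2 (ENSG00000120149, chromosome 5, 174151585 to 174157899), a repressor that holds back syncytial genes, had 47.2, 48.3, 45.7 and 46.5 TPM with the empty vector and 53.8, 54.7, 52.1 and 57.0 TPM with Siglec-XII, with all Siglec-XII samples above all controls. DLX3 (ENSG00000064195, chromosome 17, 48067369 to 48072588, minus strand), which placental formation in mice requires, had 19.1 to 24.1 TPM and 20.7 to 24.5 TPM in the 2 groups. PPARG (ENSG00000132170, chromosome 3, 12328867 to 12475855), the lipid-sensing receptor of fat cells and of the placenta, had 4.88 to 7.35 TPM and 5.23 to 6.42 TPM.

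**Figure D1:**
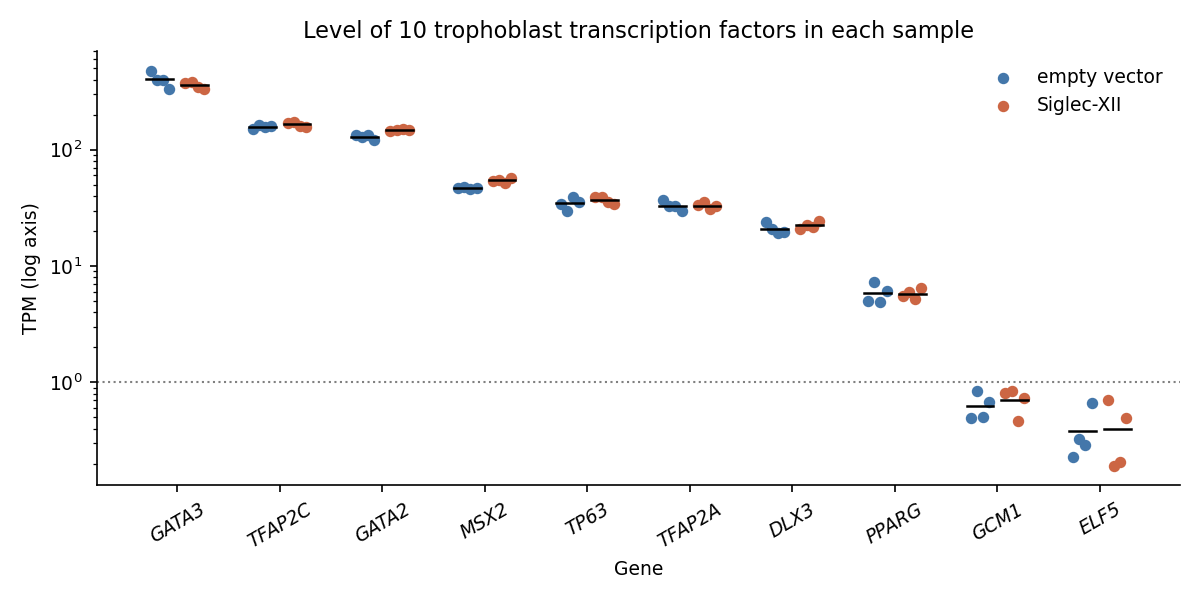
TPM (log axis) of the 10 factors, with 1 point for each sample, in blue for the empty vector and orange for Siglec-XII, and black bars at the group means (n = 4). The dotted line is at 1 TPM, which 8 genes exceed in every sample and GCM1 and ELF5 in none. The groups are apart for GATA2 and MSX2 alone, beside 9.17% of all tested entries that are higher with Siglec-XII without overlap. With equal upper quartiles GATA2 is no longer apart.

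Over the 8 samples the order of mean level was GATA3, TFAP2C, GATA2, MSX2, TP63, TFAP2A, DLX3, PPARG, GCM1 and ELF5. Of the 9 steps between neighbours in this order, 7 had no overlap between the 8 values of either gene. The ranges of TP63 and TFAP2A overlapped, with TP63 higher in 6 of 8 samples, and so did those of GCM1 and ELF5, with GCM1 higher in 8 of 8 samples. TFAP2C was above GATA2 in 8 of 8 samples, although the lowest value of TFAP2C and the highest of GATA2 were both 152 TPM. GATA3 alone made up 45.9% of the summed TPM of the 10 genes, and GATA3, TFAP2C and GATA2 were the 3 above 100 TPM. The sum was 831 TPM ± 66.5 with the empty vector and 826 TPM ± 33.4 (SD, n = 4 in each group) with Siglec-XII.

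The factors were next set beside the other genes of 7 of their families. Among the GATA genes, GATA3 held 69.2% and GATA2 25.5% of the family's TPM on average, GATA6, a factor of endoderm and heart, had a mean of 28.0 TPM, and GATA1, GATA4 and GATA5 had means below 1 TPM. Among the AP-2 genes, TFAP2C held 82.9% and TFAP2A nearly all of the rest, TFAP2B and TFAP2E had means below 1 TPM, and TFAP2D was listed at 0 in all samples. In 3 of the 7 families read the factor of the trophoblast list was not the most abundant gene. MSX1 exceeded MSX2, with 131 to 146 TPM. ELF5 was the lowest of its family, below ELF1 at 70.9 to 78.1 TPM, ELF4 at 30.2 to 35.5 TPM, ELF2 at 27.6 to 32.0 TPM and ELF3 at 24.0 to 29.7 TPM. PPARG was below PPARD, with a mean of 11.2 TPM, and PPARA, at 7.07 to 9.77 TPM. All 6 DLX genes had means above 1 TPM, with DLX3 the highest, DLX4 at 15.5 to 20.6 TPM, DLX5 at 11.4 to 19.3 TPM, DLX2 at 4.45 to 7.89 TPM, DLX6 at 2.93 to 4.85 TPM and DLX1 at 0.670 to 2.73 TPM. GCM2, the parathyroid relative of GCM1, was listed at 0 in all 8 samples.

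**Figure D2:**
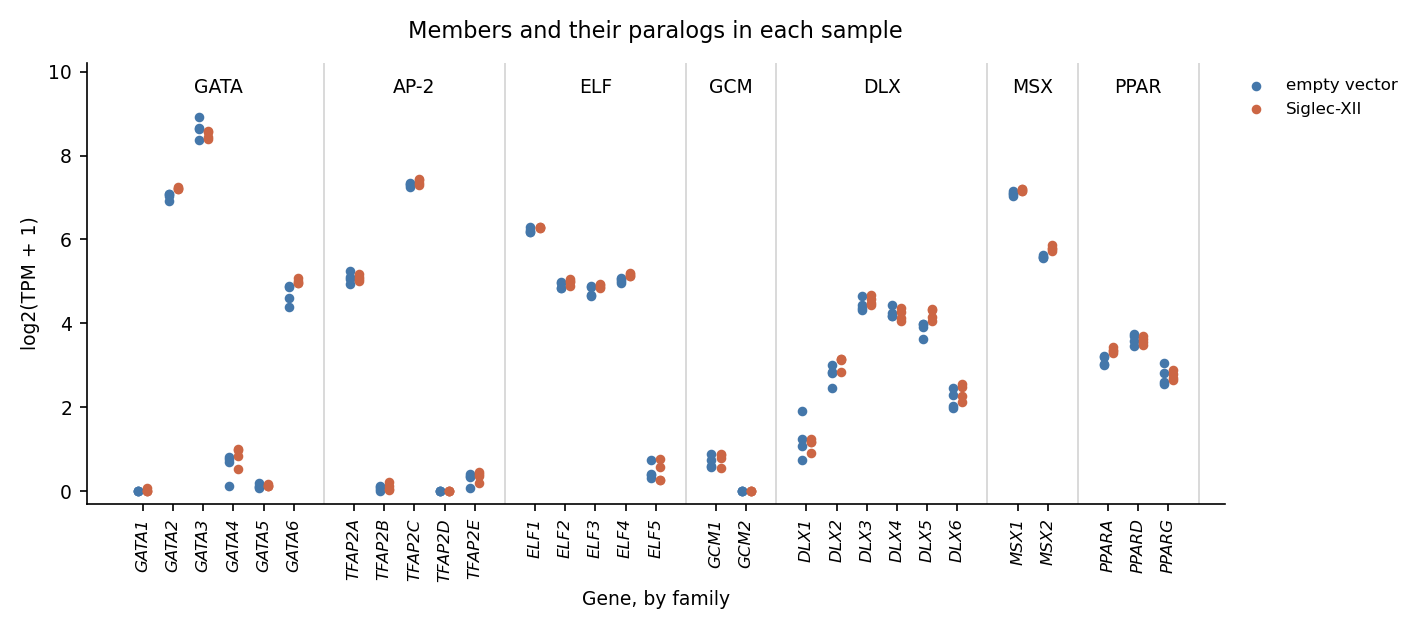
log2(TPM + 1) of each gene of the 7 families in every sample, with the empty vector in blue and Siglec-XII in orange (n = 4 each). GATA3 and GATA2 stand above the other GATA genes and TFAP2C and TFAP2A above the other AP-2 genes, while ELF5 and GCM1 lie below 1 on this scale.

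Whether the factors differed between the vectors was asked with limma on log2(TPM + 1), with Benjamini-Hochberg adjustment over the 15590 entries with at least 4 samples at 1 TPM or more. GCM1 and ELF5 did not reach that filter, and 8 factors were tested. At an adjusted p under 0.05 there were 0 of 8, where 0.648% of all tested entries passed, 0.34% higher and 0.308% lower with Siglec-XII. That split, 53 higher of 101, was 28 of 86 with quantile normalization and 24 of 82 with equal upper quartiles, and leaving out 1 library took it as far as 111 of 159 without empty vector replicate 2 and 16 of 58 without Siglec-XII replicate 4. At an unadjusted p under 0.05 there were 2 of 8, both higher with Siglec-XII, against 13.9% of all entries higher and 16.5% in either direction. The same 2 genes had groups that did not overlap, with Siglec-XII higher, against 9.17% of all entries. That share fell to 4.64% with quantile normalization, where both genes stayed apart, and to 4.70% with equal upper quartiles, where MSX2 stayed apart but GATA2 did not.

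These 2 genes were MSX2 and GATA2. MSX2 had a log2 fold change of 0.21 ± 0.046 (SE, n = 4 per group), with a 95% interval from 0.10 to 0.31 and a limma adjusted p of 0.0971. GATA2 had 0.19 ± 0.045 (SE, n = 4 per group), with an interval from 0.093 to 0.30 and a limma adjusted p of 0.103. As ratios of mean TPM these were 1.16 and 1.14. Neither passed the threshold. Both differences are to be read against the median log2 fold change of all tested entries, which was 0.067 and shifted to 0.011 when samples were scaled to equal upper quartiles. With that scaling MSX2 had 0.15 and GATA2 0.13.

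The other 6 tested factors had limma adjusted p values from 0.473 to 0.999. GATA3 had the only negative value, -0.15 ± 0.10 (SE, n = 4 per group), with a 95% interval from -0.38 to 0.072. A positive value was found for 68.1% of all tested entries, and those of TFAP2A (0.0096) and PPARG (0.00074) were near 0. The intervals ran from -0.046 to 0.17 for TFAP2C, from -0.15 to 0.17 for TFAP2A, from -0.10 to 0.30 for TP63, from -0.093 to 0.29 for DLX3 and from -0.28 to 0.29 for PPARG. An adjusted p above the threshold does not show that the groups were equal. The median over the 8 tested factors was 0.080, beside the 0.067 of all entries. The SD within groups was 0.044 for MSX2, 0.053 for GATA2, 0.060 for TFAP2C, 0.17 for GATA3 and 0.18 for PPARG on the log2 scale, against a median of 0.14 over all tested entries. Without any filter on low values, GCM1 had a log2 fold change of 0.069 (limma adjusted p = 0.872) and ELF5 0.016 (limma adjusted p = 0.990). Of the 13 tested paralogs of these 7 families that are not in the list of 10, 0 passed the limma threshold. Of these 13, 4 had groups that did not overlap, with Siglec-XII higher, against 9.17% of all entries, and the same 4 were higher at an unadjusted p under 0.05, against 13.9%. They were GATA6 (log2 fold change 0.31, limma adjusted p = 0.204), DLX5 (0.34, 0.159), PPARA (0.25, 0.197) and ELF4 (0.14, 0.222).

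**Figure D3:**
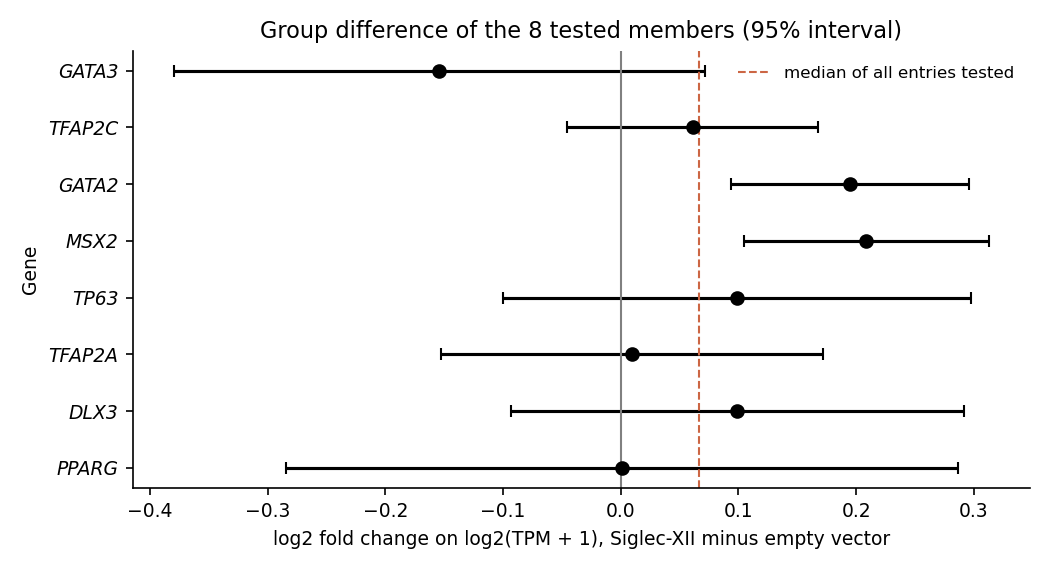
log2 fold change on log2(TPM + 1), Siglec-XII minus empty vector, of the 8 tested factors from the limma fit (n = 4 per group), with bars for the 95% interval and a dashed line at the median of all tested entries, 0.067. The intervals of MSX2 and GATA2 lie above 0 before adjustment, and the other 6 include it. An unadjusted limma p under 0.05 with Siglec-XII higher was found for 13.9% of all tested entries.

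Other regulators known from trophoblast were present at similar levels. Of 30 such genes, 27 were tested and 20 had a mean of at least 10 TPM, led by KLF5 at 218 to 298 TPM, EPAS1 at 182 to 212 TPM, HAND1 at 154 to 192 TPM, VGLL1 at 165 to 193 TPM and SP6 with a mean of 115 TPM. KLF5 is a zinc finger factor of epithelial progenitors, EPAS1 a hypoxia-inducible factor, HAND1 a factor of giant cells in mice, and VGLL1 a partner of TEAD factors. With Siglec-XII, 1 rose and 0 fell at an adjusted p under 0.05, and 7 of the 27 were higher at an unadjusted p under 0.05, against 13.9% of all tested entries. The median log2 fold change was 0.12. The gene that rose was TBX3, a T-box factor of placental and limb development, which went from 50.3 to 59.7 TPM in the controls to 65.8 to 69.2 TPM with Siglec-XII. Its log2 fold change was 0.33 ± 0.060 (SE, n = 4 per group; limma adjusted p = 0.0498), but the adjusted p was 0.05 or more under 13 of 16 alternatives, among them quantile normalization with 0.131.

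Cofactors and targets followed. Of 21 proteins that bind, modify or degrade the factors, 18 were tested, 0 passed an adjusted p of 0.05 by limma and 6 were higher at an unadjusted p under 0.05, against 13.9% of all tested entries, with a median log2 fold change of 0.13. The most abundant were CITED2, a coactivator of AP-2 factors, at 181 to 255 TPM (log2 fold change 0.26, limma adjusted p = 0.0978), the ubiquitin ligase ITCH at 68.0 to 86.2 TPM, FBXW2, which marks GCM1 for degradation, at 40.9 to 47.2 TPM, the deacetylase HDAC3 at 39.7 to 49.6 TPM and the acetyltransferase CREBBP at 31.6 to 49.1 TPM. RXRA, the receptor that pairs with PPARG and belongs to this list and to that of trophoblast regulators, had a log2 fold change of 0.26 (limma adjusted p = 0.141), and is named after its value was seen.

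Of 26 genes known as targets, 18 were tested, 0 passed by limma and 2 were higher at an unadjusted p under 0.05, again against 13.9%, with a median log2 fold change of 0.073. HSD3B1, a placental steroid enzyme whose promoter GATA2 and TFAP2A are known to act on, had 316 to 370 TPM, and HSD17B1, which forms estradiol, had 124 to 157 TPM. The laminin receptor subunit ITGB4 at 79.3 to 116 TPM and PERP at 81.3 to 95.7 TPM, both linked to TP63, and ERBB2 at 34.7 to 44.7 TPM, linked to AP-2, completed the 5 most abundant. Among the genes listed as targets were also the syncytins and a growth factor. ERVW-1 (syncytin-1) had 1.08 to 1.59 TPM, ERVFRD-1 (syncytin-2) 0.546 to 2.48 TPM and PGF 1.56 to 3.96 TPM, and these were chosen after their values were seen. By mean level, 10 of the 26 were below 1 TPM and 8 were at 10 TPM or more. Those below 1 TPM were the hormone subunit genes CGA, CGB3 and CGB5, and CYP11A1, KRT14, FABP4, ANGPTL4, CD36, PRLR and CSH1. They too are named for their values.

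The labelled cell type was checked against its markers. Of 20 markers of intestinal epithelium and of Caco-2, 18 had a mean below 1 TPM, and KRT20, SI, FABP1, TFF3 and PHGR1 were listed at 0 in all 8 samples, genes named here because they are at 0. CDX1 at 128 to 165 TPM and CDX2 at 34.0 to 48.8 TPM were the exceptions, and CDX2 is itself a trophoblast regulator in mice and stands on both lists. Both were higher with Siglec-XII at an unadjusted p under 0.05, against 13.9% of all entries, with log2 fold changes of 0.17 (limma adjusted p = 0.202) for CDX1 and 0.23 (limma adjusted p = 0.252) for CDX2. Without CDX1 and CDX2 the list summed to 1.98 to 3.58 TPM with the empty vector and 2.29 to 4.19 TPM with Siglec-XII. HNF4A and VIL1, which define enterocyte-like Caco-2 cells, had means of 0.0888 and 0.641 TPM. With CDX1 and CDX2 the sums were 164 to 187 TPM and 191 to 217 TPM, without overlap, and their part in the differences of GATA2 and MSX2 was not tested. Low levels of the other 18 were shared by both groups, and what they say of the cultures was not tested.

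Of 16 markers of trophoblast epithelium, 14 had a mean of at least 1 TPM and 9 of at least 100 TPM. KRT8 (3630 to 4772 TPM), KRT18 (2733 to 3623 TPM) and KRT19 (968 to 1161 TPM) are keratins of any simple epithelium, whereas XAGE3 (1114 to 1233 TPM) and XAGE2 (710 to 851 TPM) are known from placenta and tumors. By limma 0 of the 14 tested passed. At an unadjusted p under 0.05, 5 were higher and 1 lower, against 13.9% of all tested entries higher and 16.5% in either direction. The summed level of the 16 genes was 10688 to 11490 TPM with the empty vector and 12032 to 12523 TPM with Siglec-XII, without overlap, and its part in the differences of GATA2 and MSX2 was not tested. Most of that gap came from KRT8, with means of 3903 and 4617 TPM, and KRT18, with 2947 and 3419 TPM. XAGE2 was lower with Siglec-XII, with means of 803 and 730 TPM. Of the 14 tested, 3 were higher and 1, XAGE2, lower without overlap, against 9.17% and 1.68% of all tested entries. Markers of the fused and the invasive cells were lower. Of 18 syncytiotrophoblast markers, 8 had a mean below 1 TPM and SDC1 was the highest with a mean of 13.7 TPM, and the list summed to 32.2 to 52.6 TPM with the empty vector and 32.5 to 39.9 TPM with Siglec-XII. Of 10 extravillous markers, 3 had a mean below 1 TPM, and NOTUM, a secreted Wnt inhibitor, led with 41.4 to 59.7 TPM. HLA-G stood on 8 entries and LAIR2 on 4. Only the highest of each was counted, with means of 2.73 and 0.0431 TPM, so reads assigned to the others are left out.

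Because GATA3, TP63, TFAP2A, TFAP2C and ELF5 are also factors of skin, bladder and breast, markers of those epithelia were read too. Of 12 keratinocyte markers, 9 had a mean below 1 TPM, with KRT10 at 17.3 to 25.4 TPM and DSC3 with a mean of 10.5 TPM as the highest, KRT5 at 1.31 to 2.35 TPM and LOR listed at 0. Of 8 urothelial markers, 4 had a mean below 1 TPM, with ELF3 highest, UPK2 at 11.2 to 20.6 TPM and UPK3A listed at 0. Of 11 markers of mammary luminal cells, 10 had a mean below 1 TPM, with KRT15 highest at 1.25 to 2.79 TPM and CSN2 and SCGB2A2 listed at 0. Only 3 keratinocyte, 4 urothelial and 2 mammary genes were tested. Of these, 0 passed the limma threshold, against 0.648% of all tested entries, and 0 had an unadjusted p under 0.05, against 16.5%. In bulk RNA, fewer cells of a type and less RNA per cell cannot be told apart.

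**Figure D4:**
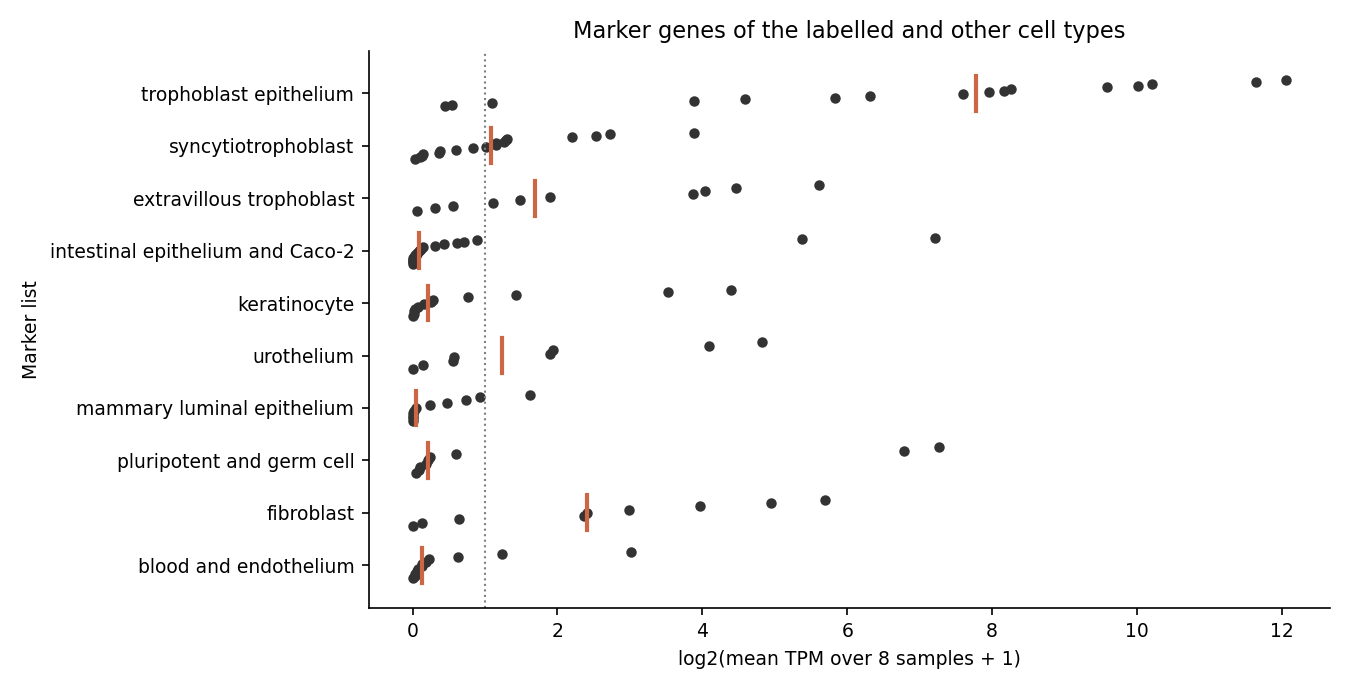
log2 of the mean TPM over 8 samples plus 1, with 1 point for each gene of 10 marker lists, an orange bar at the list's median and a dotted line at 1 TPM. The median of the trophoblast epithelium list, 7.78 on this scale, is the highest, but the lists were chosen with earlier results of these data known. All but CDX1 and CDX2 of the intestinal list lie below the line.

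Antisense transcripts at the GATA loci, read after their values were seen, were far below the sense genes. GATA2-AS1 overlaps the 5' end of GATA2 on the opposite strand and had 14.9 to 19.3 TPM with the empty vector and 15.2 to 18.8 TPM with Siglec-XII, or 10.4% to 14.9% of GATA2 over the 8 samples. GATA3-AS1 had 4.11 to 5.86 TPM and 4.30 to 6.63 TPM. The kit keeps the strand, but whether the quantification used it is not given in the sources used here, so reads of the overlapping parts may be shared.

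The entries whose log2 levels followed those of the most abundant factors most closely over the 8 samples were FIP1L1 (Pearson r = 0.964), BRD7 (r = 0.951) and FAM72D (r = 0.932) for GATA3, and CCP110 (r = 0.982), RAB36 (r = 0.966) and HIF3A (r = 0.945) for TFAP2C. Each is the top of 15589 entries compared over only 8 libraries and describes these libraries. FAM72D belongs to a family of near-identical copies, among which reads may be divided.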

How the data were processed

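The authors quantified 100 bp paired reads with kallisto (0.45.0 in the submitters' processing notes) against hg19 and deposited log2(TPM + 1) for 63816 gene entries, with 1 column per sample. Each column, taken back from the log2 scale, summed to 1000000 TPM, so the values do not give the read depth of each library. The labels name only a range, 25000000 to 40000000 reads. Intervals from counts cannot be given, and low values such as those of GCM1 and ELF5 carry more error. TPM also depends on the transcript lengths used and on the rest of the RNA. The labels name a kit for total RNA, the methods of the study one for poly(A) RNA.

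Groups were taken from the titles. limma 3.58.1 in R 4.3.3 (lmFit, eBayes with trend, two-sided, Benjamini-Hochberg) was run on the deposited values of the 15590 entries with 1 TPM or more in at least 4 samples. It was first run on simulated data with larger changes than those of the factors, which cannot show how it performs at theirs. Fold changes are on the log2(TPM + 1) scale. SIGLEC12 was compared by an exact permutation test. The members, lists and tests were chosen with earlier results of these data known. Named genes are the 10 factors, their paralogs (1 family is not reported here), SIGLEC12, the 5 most abundant genes and any called gene of each list, and the 3 entries most correlated with each of the 2 most abundant factors, and others are said to be named for their values. Where a symbol repeats, the entry with the highest mean was used. Gene positions are from GENCODE lifted to GRCh37. Alternatives tried were no filter, a mean of 5 TPM, a pseudocount of 0.1, quantile normalization, equal upper quartiles, a replicate block, no trend, TPM summed by symbol and each library left out. Beside the lists of the report, markers of pluripotent and germ cells, fibroblasts, and blood and endothelium were read.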

Additional observations from a re-analysis of the deposited data

How the results depend on the processing

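Under all 16 alternatives 0 of the 8 tested factors passed an adjusted p of 0.05, and the lowest adjusted p of any factor was 0.0777, for MSX2 with a mean of at least 5 TPM. GATA2, GATA3, TP63, DLX3 and MSX2 kept their direction throughout, from 0.13 to 0.21 for GATA2, -0.24 to -0.066 for GATA3, 0.028 to 0.16 for TP63, 0.027 to 0.17 for DLX3 and 0.14 to 0.23 for MSX2. The values near 0 changed sign. With quantile normalization TFAP2A had -0.066, TFAP2C -0.0021 and PPARG -0.052, and with equal upper quartiles TFAP2A had -0.050, TFAP2C -0.00034 and PPARG -0.051, as the median of all entries went from 0.067 to 0.0095 and 0.011. With 1 library left out, TFAP2A ran from -0.040 to 0.061 and PPARG from -0.066 to 0.10. The single called gene of the lists, TBX3, was lost (0 genes) with a pseudocount of 0.1, no filter, quantile normalization, equal upper quartiles, no trend and the replicate block, and leaving out libraries gave 0 to 1. Its adjusted p stayed under 0.05 with a mean of 5 TPM, with TPM summed by symbol and when replicate 4 of the empty vector was omitted.

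With the replicate number as a block, 0 factors passed, with adjusted p values of 0.202 for GATA2 and 0.206 for MSX2. GATA3 had an unadjusted limma p of 0.0498 with the block and 0.158 without it, and an adjusted p of 0.316 with the block. The deviations of same-numbered samples correlated by -0.074 to 0.059, and 4 of 8 libraries correlated best with their own number. Whether the numbers mark pairs was not tested. The SIGLEC12 difference was 10.59 on the log2 scale, 13.20 with a pseudocount of 0.1, and 10.57 to 10.62 with 1 library left out, where the exact permutation test cannot go below 0.0571. The number of all entries called moved from 101 to 51 without a filter, 54 without the trend, 49 when replicate 3 of the empty vector was omitted and 159 when its replicate 2 was, and the number of higher calls from 53 of 101 to 28 of 86 with quantile normalization, 24 of 82 with equal upper quartiles and 18 of 69 with the replicate block, and between 16 of 58 and 111 of 159 with 1 library left out.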

Other observations

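Genes of lists outside trophoblast were also present at levels like those of the factors. LIN28A, an RNA-binding protein of early embryonic cells, had 140 to 167 TPM and ZFP42 had 97.5 to 117 TPM, while the other 7 of 9 pluripotency and germ cell markers, NANOG, POU5F1 and SOX2 among them, had means below 1 TPM. LIN28A was higher with Siglec-XII by 0.15 on the log2 scale with a limma adjusted p of 0.147. Of 9 fibroblast markers, 6 had a mean of at least 1 TPM, led by COL1A1 at 41.9 to 59.1 TPM and VIM at 27.0 to 33.9 TPM, while THY1 was listed at 0 in all samples. Of 12 blood and endothelial markers, 10 had a mean below 1 TPM, GATA1 included, and CDH5 was the highest at 5.23 to 11.5 TPM. Of the pluripotency, fibroblast and blood lists, 2, 6 and 2 genes were tested, and 0 passed the limma threshold. LIN28A and COL1A1 were higher with Siglec-XII at an unadjusted p under 0.05, against 13.9% of all tested entries.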
